A study of Mus musculus with 9 samples.

Results

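Apc, Ctnnb1, Myc, Fbxw7, Trp53, Smad4, Arid1a and Cdh1 are genes that are recurrently altered in colorectal tumours, several of them also in cancers that arise in an inflamed colon. Their RNA levels were followed in organoids of the mouse colon, small epithelial structures that grow in a gel, before and during long treatment with inflammatory reagents. The 8 genes were taken by name, through the RefSeq accessions of the array's probes, and are 8 of 20660 named genes on the array. Each of the 8 had at least 1 probe well above background and so was among the 14033 genes tested. Each of the 9 RNA samples was labelled with Cy3 and read on its own Agilent array, with a single dye. The untreated organoids, at 0 weeks, gave 3 arrays, organoids treated for 12 weeks gave 3 and organoids treated for 60 weeks gave 3. All 3 groups are mouse colon organoids of otherwise undescribed genotype, strain and age, and the labels do not name the reagents. No untreated culture of 12 or 60 weeks was analysed here, so treatment and time in culture cannot be told apart. Whether replicates are separate animals, cultures or wells is not stated, so the p-values measure only the spread between these samples, which may be technical.

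In colon epithelium, Apc, Ctnnb1 and Myc act on the Wnt pathway. The Apc protein scaffolds a complex that marks beta-catenin, the product of Ctnnb1, for destruction, and beta-catenin that escapes it drives transcription of Wnt target genes, Myc among them. Fbxw7 is the substrate-recognition part of a ubiquitin ligase that marks cyclin E, Myc, Jun and Notch proteins for degradation. Trp53 encodes p53, a transcription factor that halts the cell cycle or starts cell death after damage. Smad4 carries TGF-beta and BMP signals to the nucleus, Arid1a is a DNA-binding subunit of BAF chromatin remodellers, and Cdh1 encodes E-cadherin, which holds epithelial cells together and binds beta-catenin at the membrane. Tumour mutations in these genes mostly act on the protein, by loss or by stabilisation, and an array reports the amount of RNA only.

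The RefSeq tables for build GRCm38.p6 held start-site windows for 4 of the 8 genes: Ctnnb1, Fbxw7, Trp53 and Arid1a. The 3 that rose at 12 weeks are shown, at the outermost start among those windows, from 150 bases before to 18 bases after it. They lie at chr9:120933250-120933417 on the plus strand (Ctnnb1), chr11:69580209-69580376 on the plus strand (Trp53) and chr4:133756752-133756919 on the minus strand (Arid1a). Capitals mark a match, on either strand, to a GC box, an E-box, a TCF/LEF motif or a TATA box, each spelled out after the sequences.
Ctnnb1: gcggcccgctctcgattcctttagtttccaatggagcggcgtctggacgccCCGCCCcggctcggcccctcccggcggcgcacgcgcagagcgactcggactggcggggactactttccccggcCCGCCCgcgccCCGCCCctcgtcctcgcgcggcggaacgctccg
Trp53: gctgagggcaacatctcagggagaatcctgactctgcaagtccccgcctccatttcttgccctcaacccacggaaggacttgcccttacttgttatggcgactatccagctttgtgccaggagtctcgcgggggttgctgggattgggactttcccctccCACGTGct
Arid1a: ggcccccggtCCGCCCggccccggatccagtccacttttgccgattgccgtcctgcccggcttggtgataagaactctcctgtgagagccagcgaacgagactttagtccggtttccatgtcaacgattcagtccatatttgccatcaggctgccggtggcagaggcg
The Ctnnb1 window is 76.2% G and C, against a median of 54.2% over 32851 windows of the same length, and holds 3 GC boxes, all on the strand opposite to the gene. A GC box, searched as GGGCGG, occurs in 30.2% of all windows. The Arid1a window holds 1 GC box and is 60.7% G and C. Ctnnb1 and Arid1a each had a second start, whose window is not shown. That of Ctnnb1 is 70.8% G and C, with 0 GC boxes and 1 TATA box, at base -120. That of Arid1a is 79.8% G and C, with 5 GC boxes, some of them overlapping. The Trp53 window, 57.7% G and C, has neither a GC box nor a TATA box, the latter searched as TATAAA and found in 8.07% of windows. It holds an E-box from base 11 of the transcript, a motif searched as CACGTG and found in 4.81% of all windows. No 2 matches overlapped in the 3 windows shown, and none of the 3 held the TCF/LEF letters ATCAAAG, which occur in 2.08% of windows. A match is a description of the letters and was not tied to binding.

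All levels are log2 intensities relative to the array's own 75th percentile, so 0 is as bright as that percentile; the brightness of 1 probe cannot be set against another's. On each array 49.2 to 52.7% of probes were well above background. The labelled tissue was borne out by its markers: 12 of 12 intestinal epithelial genes were above background on all 9 arrays. Their summed linear level, relative to the percentile, was 2170 to 2610 at 0 weeks, 2350 to 2520 at 12 weeks and 2250 to 2520 at 60 weeks. That sum is set mostly by the brightest markers, Krt8, Krt18, Krt19 and Lgals4, so it says little of the dimmer ones. Mean log2 levels at 0, 12 and 60 weeks were 2.18, 4.16 and 0.87 for Krt20 and 4.58, 5.89 and 4.52 for Hnf4a. For Krt19 they were 8.98, 9.05 and 9.01. Of 9 fibroblast markers 1 was above background on all arrays and Dcn, Lum, Pdgfra, Pdgfrb and Thy1 on none, with sums of 0.311 to 0.414, 0.226 to 0.304 and 0.307 to 0.387. Of 9 immune markers on the array 4 were above background on all arrays and Ptprc and Cd79a were among those on none. The immune sums were 21.7 to 28.7, 27.7 to 51.7 and 31.2 to 38.9, and the part of these genes in the results was not tested. Of 7 endothelial markers 2 were above background on all arrays and Cdh5, Tek, Tie1 and Emcn on none, with sums of 8.64 to 11, 6.93 to 9.01 and 8.74 to 11.5. The 12 weeks replicate 2 array stood apart, with correlations across genes of 0.977 and 0.978 to its fellow replicates, against 0.990 to 0.996 for all other pairs within a group. The 3 untreated arrays and 12 weeks replicate 1 lay in row 1 of the first slide, 12 weeks replicates 2 and 3 and 60 weeks replicates 1 and 2 in row 2, and 60 weeks replicate 3 on a second slide. No row held both 0 and 60 week arrays, so a slide-row block reaches 60 against 0 weeks only through the 12 week arrays. Being alone in its row, 60 weeks replicate 3 adds nothing to that fit. Whether a call that ended under the block reflects the row or the lower precision was not tested.

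At 12 weeks 3 of the 8 genes had risen, Ctnnb1, Trp53 and Arid1a, and none had fallen. The same limma test, with Benjamini-Hochberg adjustment over all genes and a threshold of 0.05, called 41.8% of all genes at 12 against 0 weeks, 19.1% as higher and 22.7% as lower. At 60 weeks 2 of 8 stood above the untreated level, Ctnnb1 and Cdh1, where 32.8% of all genes were called, 16.7% higher and 16.1% lower. From 12 to 60 weeks 1 of 8, Ctnnb1, fell, where 38.3% of all genes were called, 20.7% higher and 17.6% lower. These shares of members, 37.5%, 25% and 12.5%, lie near or below the shares of all genes. The sizes were small: the median absolute change was 0.25, 0.26 and 0.15 log2 units over the 8 genes, against 0.37, 0.32 and 0.35 over all genes. The signed medians were 0.25, 0.16 and -0.14, against -0.06, -0.04 and 0.02 over all genes. Changes at 12 and at 60 weeks share the untreated arrays. Groups without overlapping arrays were found for 4 genes, all higher, at 12 against 0 weeks for 3, all higher, at 60 against 0 weeks and for 3, all lower, at 60 against 12 weeks. Over all genes 54.5% were separated in the first comparison (24.9% higher, 29.7% lower), 56.4% in the second (27.5% higher, 28.9% lower) and 47.2% in the third (25.3% higher, 21.8% lower). limma's F test across the 3 groups called Ctnnb1, Arid1a and Cdh1, 3 of 8, and 56.7% of all genes. Counts in the pathway lists below are to be read beside the shares of all genes called in each comparison. No list was tested as a set.

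**Figure D1:**
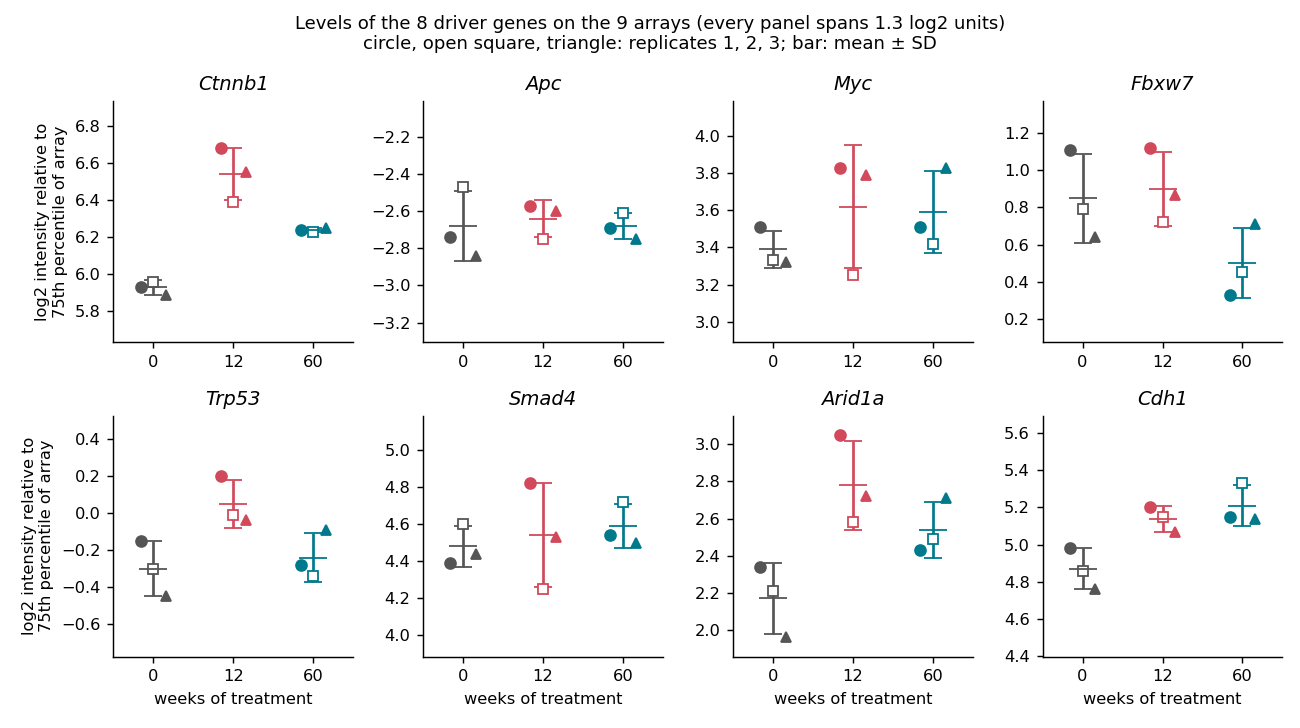
Levels of the 8 genes on each of the 9 arrays, as log2 intensity relative to the array's 75th percentile, by weeks of treatment; symbols are replicates and bars the mean ± SD of 3 arrays, and every panel spans the same height. Ctnnb1 lies at 5.89 to 5.96 untreated, 6.39 to 6.68 at 12 weeks and 6.23 to 6.25 at 60 weeks, with no overlap, while the 3 groups of Apc and of Smad4 overlap.

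**Figure D2:**
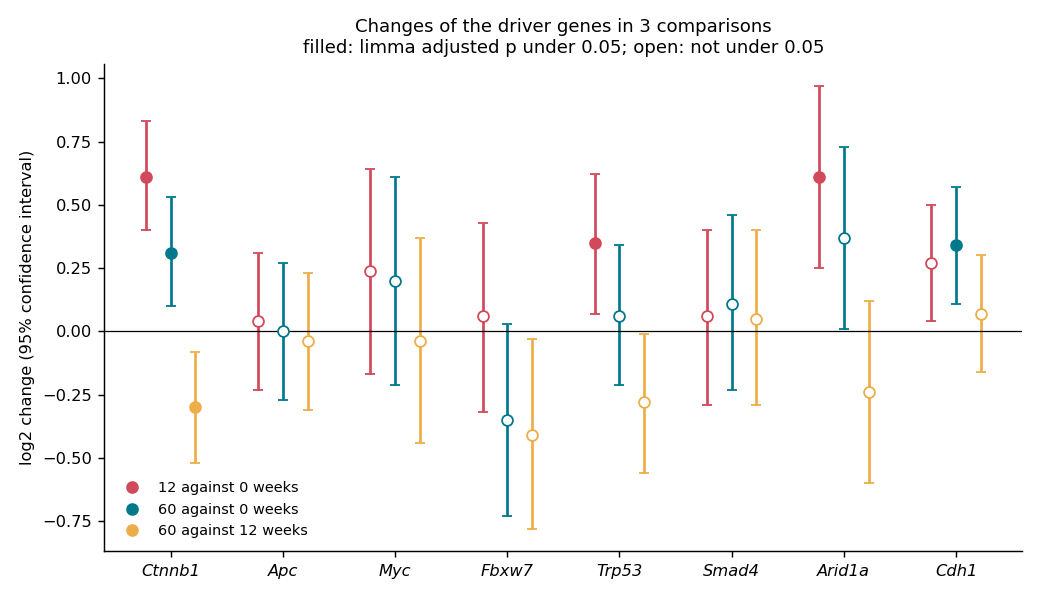
Log2 change of each gene with its 95% confidence interval from limma, in 3 comparisons; filled points have an adjusted p under 0.05 over all 14033 genes. Ctnnb1 is filled in every comparison, Trp53 and Arid1a at 12 against 0 weeks and Cdh1 at 60 against 0 weeks.

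Ctnnb1, the gene of beta-catenin, gave the lowest adjusted p of the 8. Its levels were 5.93, 5.96 and 5.89 on the untreated arrays, 6.68, 6.39 and 6.55 at 12 weeks and 6.24, 6.23 and 6.25 at 60 weeks. In such bulk RNA, fewer cells expressing a gene and less RNA per cell cannot be told apart. No 2 groups overlapped: the untreated arrays were lowest, the 12 week arrays highest and the 60 week arrays between them. The change at 12 weeks was 0.61 ± 0.09 (SE, n = 3 arrays a group; a 1.53-fold rise, 95% interval 0.40 to 0.83, limma adjusted p = 0.00147). At 60 weeks Ctnnb1 remained 0.31 ± 0.09 above the untreated level (adjusted p = 0.0353), and from 12 to 60 weeks it fell by 0.30 ± 0.09 (adjusted p = 0.0363). Within row 1 of the slide the 12 week array lay 0.75 above the mean of the 3 untreated arrays, and within row 2 the mean at 60 weeks was -0.23 relative to 12 weeks. Blocking on the slide row, the value at 60 against 0 weeks was 0.51 (adjusted p = 0.108) and at 60 against 12 weeks -0.24 (adjusted p = 0.157). The 60 against 0 week call ended when any 1 of 7 arrays was left out, all but 12 weeks replicates 1 and 2, with adjusted p of 0.0535 to 0.109 and values of 0.29 to 0.33. The 60 against 12 week call ended without any 1 of 8 arrays, all but 12 weeks replicate 2, with adjusted p of 0.0573 to 0.109.

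Apc, the scaffold of the complex that destroys beta-catenin, had levels of -2.74, -2.47 and -2.84 untreated, -2.57, -2.75 and -2.60 at 12 weeks and -2.69, -2.61 and -2.75 at 60 weeks. The 3 groups overlapped. The changes were 0.04 at 12 weeks (95% interval -0.23 to 0.31, adjusted p = 0.797) and 0.00 at 60 weeks (interval -0.27 to 0.27, adjusted p = 0.994), so these arrays bound a shift in Apc RNA to those ranges without showing its absence. A second Apc probe, for which only 1 of 9 arrays was well above background, gave no usable level. The destruction complex list had 11 tested genes, Apc included, and also held Ctnnbip1, which is not a part of the complex. Of the 11, 0 were higher and 4 lower at 12 weeks, and 0 were higher and 3 lower at 60 weeks, Ctnnbip1 among the lower ones both times. Their medians were -0.19 and -0.15. Csnk1a1, the kinase that primes beta-catenin for phosphorylation, fell by 0.59 ± 0.11 at 12 weeks (adjusted p = 0.00361). Ctnnbip1, which blocks beta-catenin from binding its partner transcription factors, fell by 0.58 ± 0.11 at 12 weeks (adjusted p = 0.00359) and 0.40 ± 0.11 at 60 weeks (adjusted p = 0.0214). Amer1, which recruits Axin and Apc to the membrane, fell by 0.75 ± 0.15 at 12 weeks (adjusted p = 0.00506). In the slide-row fit 2 of the 11 were lower at 12 weeks and 0 at 60 weeks, and the 12 week calls of Ctnnbip1 (-0.39, adjusted p = 0.0657) and Amer1 (-0.56, adjusted p = 0.055) ended. At 60 weeks Ctnnbip1 was -0.12 in that fit (adjusted p = 0.702). Its 60 week call also ended without 0 weeks replicate 1 or 3 or 60 weeks replicate 1 or 3 (-0.40 to -0.37, adjusted p of 0.0508 to 0.0744). Without 12 weeks replicate 2 the counts were 4 lower at 12 weeks, and 1 higher and 5 lower at 60 weeks.

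The Wnt target genes went in both directions. Of 17 tested, Myc included, 3 were higher and 4 lower at 12 weeks, and 2 were higher and 4 lower at 60 weeks, with medians of -0.29 and -0.24. The slide-row block gave 2 higher and 4 lower at 12 weeks, and 1 higher and 1 lower at 60 weeks. Leaving out 12 weeks replicate 2 gave 4 and 6, and 2 and 5. Axin2, a target that feeds back on the pathway, had levels of 0.57, 0.30 and 0.33 untreated and -0.35, 0.18 and -0.08 at 12 weeks, and fell by 0.48 ± 0.14 (adjusted p = 0.0261). That call ended without 0 weeks replicate 1 or 3 or 12 weeks replicate 1 or 3, at -0.52 to -0.35 and adjusted p of 0.0533 to 0.0888. Lgr5, a receptor on crypt stem cells, ran from -1.72 to 1.43 across the 12 week arrays, against 1.72 to 2.0 untreated. Its change was -2.01 ± 0.65 (adjusted p = 0.0372), a call that ended without any 1 of 8 arrays, all but 12 weeks replicate 2 (adjusted p of 0.0509 to 0.0926). Without 12 weeks replicate 1 the value was -1.22 (adjusted p = 0.0602). Sp5, a transcription factor induced by Wnt, read below background on the untreated arrays. Its rise was at least 37.6-fold by 12 weeks and at least 12.9-fold by 60 weeks. Such bounds use the lowest measurable signal of each array as the level of the dim group. Ascl2, a stem cell transcription factor, was at least 5.54-fold higher at 12 weeks and below background again at 60 weeks. Ccnd1, cyclin D1, was at 7.26 ± 0.10 untreated and 7.28 ± 0.04 at 12 weeks (SD, n = 3) and fell to 6.43 ± 0.14 at 60 weeks (adjusted p = 0.000533 against 0 weeks).

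Myc, a transcription factor of growth and ribosome production, had levels of 3.51, 3.33 and 3.32 untreated, 3.83, 3.25 and 3.79 at 12 weeks and 3.51, 3.42 and 3.83 at 60 weeks. No group was set apart from another: 12 weeks replicate 2 lay below every untreated array, and its 2 fellows lay above them. The changes were 0.24 ± 0.18 at 12 weeks (95% interval -0.17 to 0.64, adjusted p = 0.315) and 0.20 ± 0.18 at 60 weeks (interval -0.21 to 0.61, adjusted p = 0.419). Without 12 weeks replicate 2 the first became 0.42 (adjusted p = 0.0324), and with limma's array weights 0.40 (adjusted p = 0.0171). That array lay 0.56 below the mean of its 2 fellows for Myc; the corresponding difference was -0.42 for Smad4, -0.31 for Arid1a, -0.28 for Fbxw7, -0.22 for Ctnnb1 and 0.02 for Cdh1, with a median of 0.04 over all genes.

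Partners and targets of Myc were called in both directions. Of all genes, 41.8% were called at 12 weeks and 32.8% at 60 weeks. Of 12 genes of the Myc network, Myc included, 5 were higher and 1 lower at 12 weeks, and 2 were higher and 2 lower at 60 weeks. Mycl, a close relative, rose by 1.87 ± 0.22 at 12 weeks (adjusted p = 0.000349) and stood 1.53 above the untreated level at 60 weeks. Mycn, another relative, was present untreated and at 12 weeks and was not well above background on any 60 week array, at least 13.5-fold lower than at 0 weeks. Of 34 Myc target genes 12 were higher and 2 lower at 12 weeks, with a median of 0.37. Odc1, the first enzyme of polyamine synthesis, rose by 0.67 ± 0.13 (adjusted p = 0.00375), and Nop56, a ribosomal RNA processing protein, rose by 0.71 ± 0.18 (adjusted p = 0.0158). The first call ended under the slide-row block (0.58, adjusted p = 0.0558) and the second without 0 weeks replicate 1 or 12 weeks replicate 1 or 3 (0.62 to 0.67, adjusted p of 0.0518 to 0.0553). Npm1, a nucleolar chaperone, fell by 0.42 ± 0.09 (adjusted p = 0.00654; -0.01 under quantile normalization). At 60 weeks the same list had 0 higher and 3 lower, with a median of -0.14, Dnph1 at -0.65 ± 0.13 (adjusted p = 0.00609) and Dkc1, which modifies ribosomal RNA, at -0.85 ± 0.26 (adjusted p = 0.0364). The Dkc1 call ended without any 1 of 5 arrays, the 3 untreated ones, 12 weeks replicate 1 and 60 weeks replicate 1, with adjusted p of 0.0509 to 0.0912. It ended also with no filter on dim probes (adjusted p = 0.0631), with only the 2 groups compared (0.0532) and relative to its chromosome (0.0518). Under the slide-row block 0 of the list were lower at 60 weeks, with Dkc1 at -1.14 (adjusted p = 0.11) and Dnph1 at -0.69 (adjusted p = 0.098). From 12 to 60 weeks 2 were higher and 16 lower, with a median of -0.56. Across the alternatives the number higher at 12 weeks ran from 4 to 20, and the number lower from 12 to 60 weeks from 9 to 21. Without 12 weeks replicate 2 the counts were 14 higher at 12 weeks, 5 lower at 60 weeks and 18 lower from 12 to 60 weeks.

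**Figure D3:**
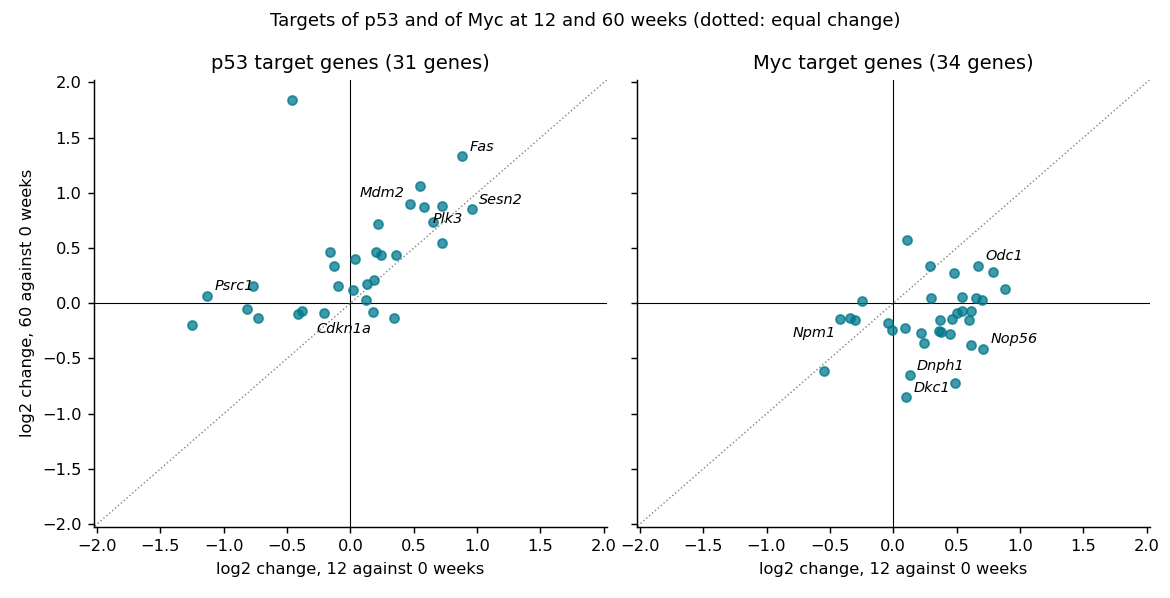
Log2 changes at 12 weeks (horizontal) and at 60 weeks (vertical), both against the same untreated arrays, for 31 p53 target genes and 34 Myc target genes; the dotted line marks equal change. Most Myc targets lie right of 0 at 12 weeks and near or below 0 at 60 weeks, with list medians of 0.37 and -0.14, whereas p53 targets have medians of 0.13 and 0.34.

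Fbxw7, the ubiquitin ligase subunit, was read by a pair of probes for different RefSeq transcripts. The brighter probe gave 1.11, 0.79 and 0.64 untreated, 1.12, 0.72 and 0.87 at 12 weeks and 0.33, 0.45 and 0.71 at 60 weeks. The 60 week arrays were the lowest on average, with 60 weeks replicate 3 inside the untreated range. Its changes were 0.06 ± 0.16 at 12 weeks (adjusted p = 0.807), -0.35 ± 0.16 at 60 weeks (95% interval -0.73 to 0.03, adjusted p = 0.136) and -0.41 ± 0.16 from 12 to 60 weeks (adjusted p = 0.0825). The last passed without 12 weeks replicate 2, at -0.50 (adjusted p = 0.0447). The dimmer probe gave 0.21, 0.24 and -0.05 untreated, 0.23, -0.43 and -0.15 at 12 weeks and -0.40, -0.67 and -0.45 at 60 weeks, so that its untreated and 60 week arrays did not overlap. In a fit over all 29894 kept probes, this probe fell by 0.64 ± 0.18 at 60 weeks (adjusted p = 0.0336). Of those probes 24.5% were called at 60 against 0 weeks and 29.9% at 60 against 12 weeks. Other members lost calls in that fit. Ctnnb1 did not pass at 60 against 0 weeks (adjusted p = 0.0581) or 60 against 12 weeks (0.0579). Trp53 at 12 weeks (0.0663) and Cdh1 at 60 weeks (0.0501) did not pass either. The 12 week calls of Ctnnb1 (0.00309) and Arid1a (0.0211) held. The changes of both Fbxw7 probes differed by 0.29 ± 0.14 at 60 weeks, brighter minus dimmer. That difference did not pass (adjusted p = 0.258 over 3649 genes with several kept probes). In the order of the 3 comparisons above, such differences were called for 13.2%, 8.47% and 12.3% of those genes, and for 0 of the 3 members with a pair of probes. Of 16 genes of the ligase and its substrates, Fbxw7 and Myc included, 3 were higher and 2 lower at 12 weeks, and 3 were higher and 3 lower at 60 weeks. With the slide row as a block 1 was higher and 2 lower at 12 weeks, and 0 were higher and 0 lower at 60 weeks. Ccne1, cyclin E, one of the substrates, rose by 1.46 ± 0.10 at 12 weeks (adjusted p = 1.67e-05) and was 0.57 above the untreated level at 60 weeks (adjusted p = 0.0029); the latter was 0.39 with the mean of all its probes (adjusted p = 0.0741) and 0.74 with the slide row as a block (adjusted p = 0.0552). Usp28, a deubiquitinase that opposes Fbxw7, fell by 0.76 ± 0.11 at 12 weeks (adjusted p = 0.00094).

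Trp53 had levels of -0.15, -0.30 and -0.45 untreated, 0.20, -0.01 and -0.04 at 12 weeks and -0.28, -0.34 and -0.09 at 60 weeks. The 12 week arrays lay above all others, and the 60 week arrays overlapped the untreated ones. The rise at 12 weeks was 0.35 ± 0.12 (a 1.27-fold change, 95% interval 0.07 to 0.62, adjusted p = 0.0485), just under the threshold. It ended without any 1 of 6 arrays (0 weeks replicates 2 and 3, 12 weeks replicates 1 and 3, 60 weeks replicates 1 and 2), with adjusted p of 0.0562 to 0.156. Values without them were 0.27 to 0.39. Within row 1 of the slide the 12 week array lay 0.50 above the untreated mean. At 60 weeks the change was 0.06 ± 0.12 (adjusted p = 0.722) and from 12 to 60 weeks -0.28 ± 0.12 (adjusted p = 0.0964).

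Of 12 tested genes that control the p53 protein, 3 were higher and 2 lower at 12 weeks, and 3 were higher and 1 lower at 60 weeks. In the slide-row fit 2 were higher and 1 lower at 12 weeks, and 0 were higher and 0 lower at 60 weeks. Cdkn2a, whose Arf product shields p53 from Mdm2, was below background throughout at 0 and 60 weeks and read 2.53, 2.70 and 2.28 at 12 weeks, at least 152-fold higher. Mdm2, the ligase that degrades p53 and is itself a p53 target, read 5.78, 5.66 and 5.73 untreated, 6.14, 6.39 and 6.06 at 12 weeks and 6.71, 6.68 and 6.48 at 60 weeks. No groups overlapped: it rose by 0.47 ± 0.12 at 12 weeks (adjusted p = 0.013) and by 0.90 ± 0.12 at 60 weeks (adjusted p = 0.000731). Under the slide-row block those values were 0.41 (adjusted p = 0.0964) and 0.89 (adjusted p = 0.0528), and without 0 weeks replicate 2 the first was 0.44 (adjusted p = 0.0522). Mdm4, which inhibits p53 as a partner of Mdm2, fell by 0.47 ± 0.12 at 12 weeks (adjusted p = 0.0164) and was 0.81 ± 0.12 above the untreated level at 60 weeks (adjusted p = 0.0017). Both calls ended under the slide-row block (-0.43, adjusted p = 0.137, and 0.86, adjusted p = 0.0911). The first also ended under normexp (-0.31, adjusted p = 0.0638) and without 0 weeks replicate 2 or 3 or 12 weeks replicate 3 (-0.45 to -0.38, adjusted p of 0.056 to 0.0645). Rchy1, another p53 ligase, rose by 0.51 ± 0.10 at 12 weeks (adjusted p = 0.00506).

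Of 31 p53 target genes, Mdm2 included, 9 were higher and 7 lower at 12 weeks, and 14 were higher and 0 lower at 60 weeks. Their medians were 0.13 and 0.34. From 12 to 60 weeks 14 were higher and 1 lower, with a median of 0.29. Fas, a death receptor, rose by 0.88 ± 0.15 at 12 weeks (adjusted p = 0.00229) and 1.33 ± 0.15 at 60 weeks (adjusted p = 0.000334). Plk3, a stress kinase, rose by 0.58 ± 0.09 and 0.87 ± 0.09 (adjusted p = 0.0017 and 0.000249), and relative to its chromosome the first was 0.24 (adjusted p = 0.144). Sesn2, a stress-induced inhibitor of mTOR signalling, rose by 0.96 ± 0.13 and 0.85 ± 0.13 (adjusted p = 0.000685 and 0.00147). Among the 7 targets lower at 12 weeks, Psrc1 fell by 1.13 ± 0.16 (adjusted p = 0.000922) and Sesn1 by 0.77 ± 0.15 (adjusted p = 0.00454). At 60 weeks their changes were 0.07 ± 0.16 and 0.16 ± 0.15 (adjusted p = 0.748 and 0.434). Cdkn1a, the cell cycle inhibitor p21 and the best known target, read 5.42, 5.41 and 5.28 untreated, 5.13, 5.36 and 4.97 at 12 weeks and 5.19, 5.59 and 5.06 at 60 weeks, with overlapping groups and changes of -0.21 ± 0.16 and -0.09 ± 0.16 (adjusted p = 0.3 and 0.696). Blocking on the slide row, 6 p53 targets were higher and 5 lower at 12 weeks, and 4 were higher and 0 lower at 60 weeks. Without 12 weeks replicate 2 the counts were 9 and 8 at 12 weeks, and 16 and 0 at 60 weeks.

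Smad4, the common Smad, read 4.39, 4.6 and 4.44 untreated, 4.82, 4.25 and 4.53 at 12 weeks and 4.54, 4.72 and 4.50 at 60 weeks. The groups overlapped, and 12 weeks held both the highest and the lowest array. The changes were 0.06 ± 0.15 (95% interval -0.29 to 0.40, adjusted p = 0.773) and 0.11 ± 0.15 (interval -0.23 to 0.46, adjusted p = 0.605), and a second probe gave -0.06 and -0.09. Of 15 TGF-beta and BMP receptors and Smads tested, Smad4 included, 2 were higher and 4 lower at 12 weeks, and 2 were higher and 2 lower at 60 weeks. With the slide row as a block the counts were 2 and 2, and 0 and 1, and without 12 weeks replicate 2 they were 4 and 4, and 2 and 4. Smad7, which blocks TGF-beta receptors, fell by 1.0 ± 0.11 at 12 weeks (adjusted p = 0.000212) and 1.29 ± 0.11 at 60 weeks (adjusted p = 6.21e-05). Smad6, the BMP counterpart, read -0.28 ± 0.05 untreated (SD, n = 3), and -4.70, -6.11 and -4.45 at 12 weeks, where 2 of 3 arrays were well above background. Its fitted change, -4.81 ± 0.37 (adjusted p = 3.58e-05), thus rests in part on a reading at background. At 60 weeks Smad6 read -2.40 ± 0.13, a change of -2.12 (adjusted p = 0.00323) that was -1.52 with the slide row as a block (adjusted p = 0.24). Both are also Smad targets, and of 17 such targets 4 were higher and 5 lower at 12 weeks, and 2 were higher and 7 lower at 60 weeks. Id1, a target of BMP signalling, read 4.51, 4.77 and 4.49 untreated, 4.58, 3.93 and 4.71 at 12 weeks and 2.08, 2.14 and 2.35 at 60 weeks, and fell by 2.39 ± 0.20 from the untreated level (adjusted p = 6.52e-05). Cdkn2b, a cell cycle inhibitor next to Cdkn2a, was above background at 12 weeks alone, at least 185-fold higher than untreated. Under the slide-row block 3 of the 17 targets were lower and 0 higher at 60 weeks.

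Arid1a read 2.34, 2.21 and 1.96 untreated, 3.05, 2.58 and 2.72 at 12 weeks and 2.43, 2.49 and 2.71 at 60 weeks. Every treated array lay above every untreated array, and the 12 and 60 week arrays overlapped. The rise at 12 weeks was 0.61 ± 0.16 (a 1.52-fold change, 95% interval 0.25 to 0.97, adjusted p = 0.015), and without 0 weeks replicate 3 it was 0.50 (adjusted p = 0.0566). At 60 weeks the change was 0.37 ± 0.16 (adjusted p = 0.105). A second probe read 0.86, 0.73 and 0.25 untreated, 1.27, 1.07 and 1.17 at 12 weeks and 0.97, 1.25 and 1.07 at 60 weeks. Over all kept probes, 34.1% of which were called at 12 against 0 weeks, it rose by 0.56 ± 0.17 (adjusted p = 0.0347) and was 0.48 ± 0.17 higher at 60 weeks (adjusted p = 0.0718). Within row 1 of the slide the 12 week array of the brighter probe lay 0.88 above the untreated mean. Of 26 BAF and PBAF subunits tested, Arid1a included, 3 were higher and 7 lower at 12 weeks, and 2 were higher and 2 lower at 60 weeks. Bcl7b, a small accessory subunit, rose by 0.72 ± 0.11 at 12 weeks (adjusted p = 0.00163), whereas Smarcd3 fell by 1.57 ± 0.28 (adjusted p = 0.00292; -1.05 with the slide row as a block, adjusted p = 0.0618). From 12 to 60 weeks 9 were higher and 2 lower, with Dpf2, a histone-reading subunit, higher by 0.85 (adjusted p = 0.000477). Blocking on the slide row, 3 subunits were higher and 2 lower at 12 weeks, 2 were higher and 0 lower at 60 weeks, and 4 were higher and 0 lower from 12 to 60 weeks. Leaving out 12 weeks replicate 2 gave 5 higher and 7 lower at 12 weeks, and 4 higher and 5 lower at 60 weeks.

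Cdh1 read 4.98, 4.86 and 4.76 untreated, 5.20, 5.15 and 5.07 at 12 weeks and 5.15, 5.33 and 5.14 at 60 weeks. The 6 treated arrays lay above each of the 3 untreated ones. At 60 weeks the rise was 0.34 ± 0.10 (a 1.27-fold change, 95% interval 0.11 to 0.57, adjusted p = 0.0304). The change at 12 weeks, 0.27 ± 0.10, had an adjusted p of 0.0568 and passed in 4 of 21 alternatives. The difference from 12 to 60 weeks was 0.07 ± 0.10 (adjusted p = 0.613). The 60 week call ended without 0 weeks replicate 2, 0 weeks replicate 3, 60 weeks replicate 1 or 60 weeks replicate 2, with adjusted p of 0.0637 to 0.109 and values of 0.28 to 0.37. Within row 1 the 12 week array lay 0.33 above the untreated mean; the slide-row block gave 0.46 at 60 weeks (adjusted p = 0.187). Of 16 adherens junction genes tested, Cdh1 and Ctnnb1 included, 3 were higher and 2 lower at 12 weeks, and 4 were higher and 4 lower at 60 weeks. In the slide-row fit the counts were 3 and 0 at 12 weeks, and 1 and 3 at 60 weeks. Nectin1, an adhesion protein that joins cells beside cadherins, read -1.63, -0.98 and -1.17 untreated and 0.14, -0.10 and -0.25 at 12 weeks, a rise of 1.19 ± 0.17 (adjusted p = 0.00116). On the 60 week arrays it was not well above background, at least 11-fold lower than untreated. Nectin3 rose by 1.49 ± 0.23 at 12 weeks (adjusted p = 0.00156) and was 1.88 below the untreated level at 60 weeks (adjusted p = 0.000579; -1.72 with the slide row as a block, adjusted p = 0.0611). Nectin4 fell by 1.3 ± 0.11 at 60 weeks (adjusted p = 7.84e-05).

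The repressors that silence Cdh1 in mesenchymal conversion were not measurable: Snai1, Snai2, Zeb1, Zeb2, Twist1 and Twist2 were above background on 0 of 9 arrays. Of the 8 genes of that list that were tested, 3 were higher and 1 lower at 12 weeks, and 3 were higher and 2 lower at 60 weeks. With the slide row as a block 1 was higher and 1 lower at 60 weeks, and 3 were lower at 12 weeks without 12 weeks replicate 2. Vim, an intermediate filament of mesenchymal cells, was above background on the 12 week arrays alone, at least 4.73-fold higher than untreated. Which cells gave the Vim signal was not tested. Ovol2, an epithelial repressor of Zeb1, fell by 1.34 ± 0.11 at 12 weeks and 1.41 ± 0.11 at 60 weeks (adjusted p = 5.01e-05 and 4.61e-05), while its relative Ovol1 rose by 0.92 ± 0.21 and 1.32 ± 0.21 (adjusted p = 0.00834 and 0.00189). Epcam, an epithelial surface protein, did not pass, with differences of -0.28 ± 0.12 and -0.06 ± 0.12 (adjusted p = 0.0873 and 0.71).

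**Figure D4:**
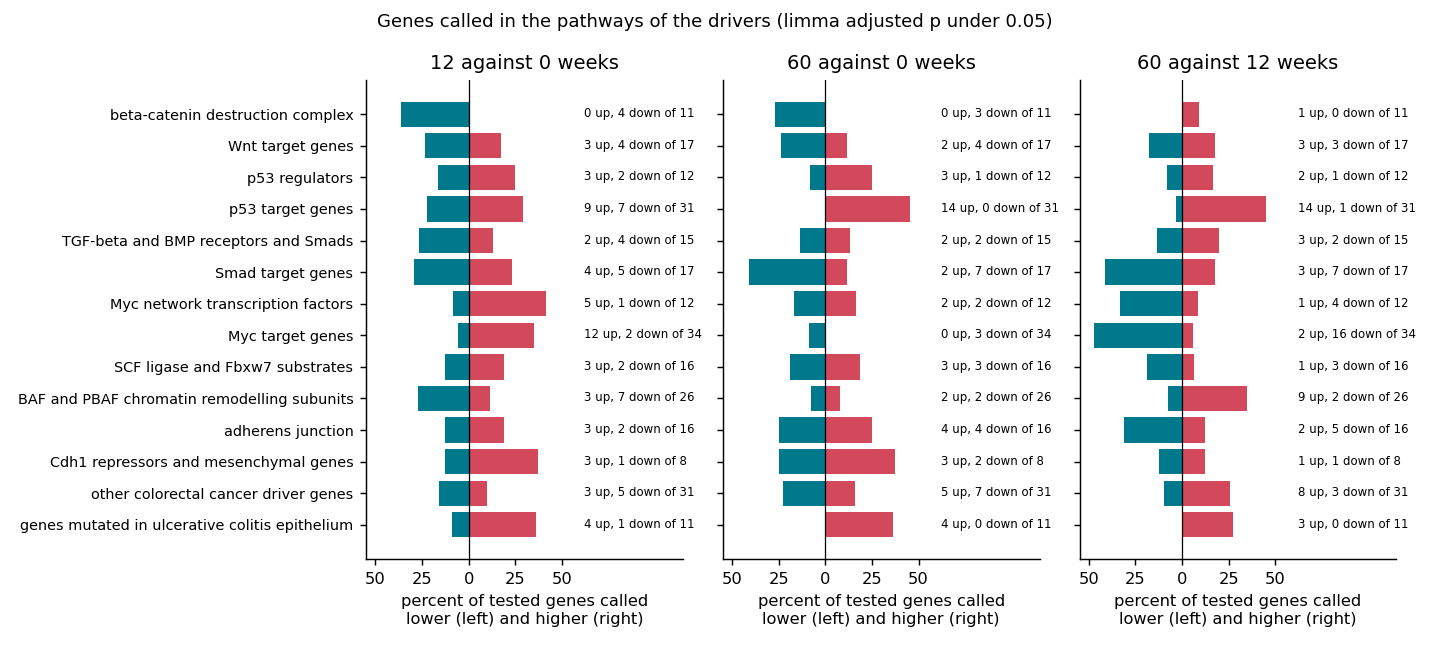
Share of the tested genes of each pathway list called higher (right) or lower (left) in 3 comparisons, with the counts printed beside the bars. Among p53 targets 14 of 31 are higher and 0 lower at 60 against 0 weeks, and among Myc targets 12 of 34 are higher at 12 against 0 weeks and 16 lower at 60 against 12 weeks. Over all genes 16.7% were higher and 16.1% lower at 60 against 0 weeks. At 12 against 0 weeks 19.1% were higher, and at 60 against 12 weeks 17.6% were lower.

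The median change differed between chromosomes, so values relative to the chromosome are given for Arid1a and some other named genes. Whether the chromosome has a part in any of these changes was not tested. Over 920 other genes of chromosome 4, where Arid1a lies, the median change was 0.26 at 12 weeks and 0.20 at 60 weeks, and 37.2% were called higher at 12 weeks. The chromosomes of the other 7 genes had medians of -0.15 to -0.05 at 12 weeks and -0.16 to -0.09 at 60 weeks. When each gene was taken relative to the median of its own chromosome on the same array, the Arid1a change at 12 weeks was 0.26 (adjusted p = 0.183), so the call ended. Arid1a lay above 73.7% of the genes of chromosome 4 at 12 weeks. Ctnnb1, whose chromosome 9 had a median of -0.15, lay above 86.2% of the genes of that chromosome at 12 weeks, and Trp53 above 82.4% of those of chromosome 11. Chromosomes 5, 12 and 14 also had medians above 0 at 12 weeks, of 0.17, 0.23 and 0.20. At 60 weeks the medians of chromosomes 10 and 19 were 0.28 and 0.37. Relative to their chromosomes, the changes from 12 to 60 weeks were 0.15 rather than 0.43 for Mdm2 (adjusted p = 0.447) and 0.11 rather than 0.45 for Fas (adjusted p = 0.619). The 60 week change of Rchy1 was 0.26 rather than 0.40 (adjusted p = 0.127) and that of Dpf2 0.30 rather than 0.73 (adjusted p = 0.0683). Among the 6 neighbours of Ctnnb1 0 were higher and 1 lower at 12 weeks. Those of Arid1a were 3 higher and 1 lower at 12 weeks, with Rps6ka1, a growth factor-activated kinase, at 0.55 ± 0.09 (adjusted p = 0.00197) and Zdhhc18, a palmitoyltransferase, at 0.44 ± 0.09 (adjusted p = 0.00622). Of the 6 neighbours of Trp53, 3 were higher at 12 weeks and 3 lower from 12 to 60 weeks. Wrap53, the immediate neighbour and a telomerase cofactor gene, rose by 0.60 ± 0.09 (adjusted p = 0.00106) and then fell by 0.45 ± 0.09 (adjusted p = 0.00487). Beside Cdh1, Cdh3, the gene of P-cadherin, was at least 1.73-fold lower at 60 weeks than untreated, and beside Smad4, Dcc, a netrin receptor, rose by 2.16 ± 0.36 at 60 weeks (adjusted p = 0.00245). Pvt1, a long noncoding RNA gene next to Myc, rose by 0.36 ± 0.09 at 60 weeks (adjusted p = 0.014).

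**Figure D5:**
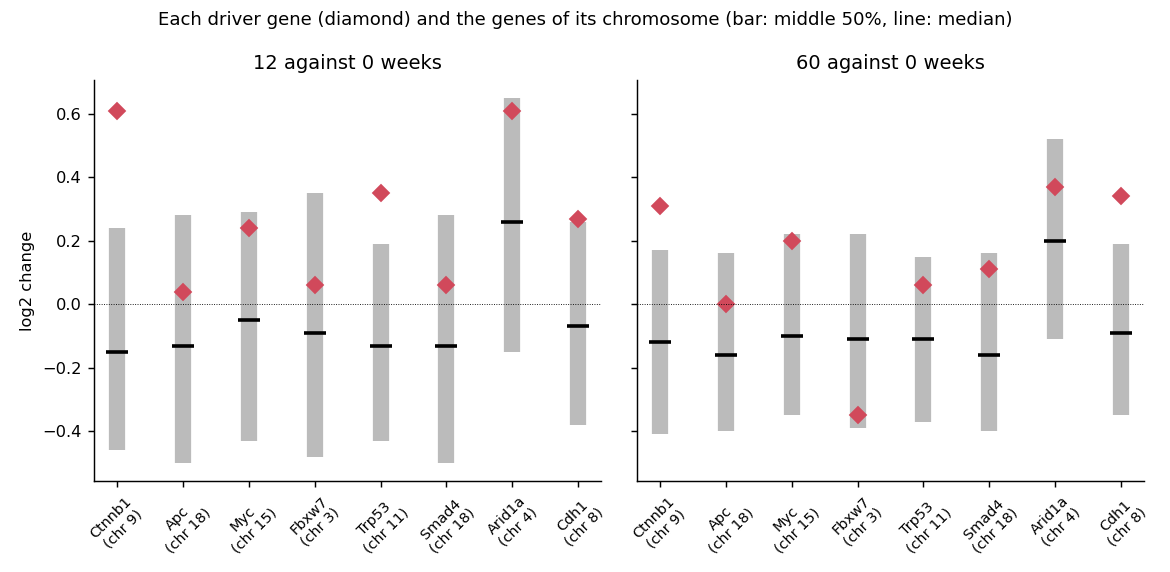
Log2 change of each gene (diamond) beside the median (line) and middle 50% (bar) of all tested genes on its chromosome, at 12 and at 60 against 0 weeks. The chromosome 4 median is 0.26 and 0.20, and the other chromosomes shown have medians below 0.

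Among genes that passed the F test, the profiles most like theirs over the 9 arrays were found by Pearson correlation across 13421 genes. Gak, a kinase of clathrin uncoating, and Tepsin, an adaptor-associated protein, had r = 0.994 with Ctnnb1, and Lnx2, a ubiquitin ligase, had r = 0.993. Arid1a was most like Kif13a, a kinesin motor (r = 0.979), Prr14l (r = 0.976) and Arhgap35 (r = 0.970). Cdh1 was most like Ano3 (r = 0.985), Ctnnd1 (r = 0.977) and Fmn1, a formin (r = 0.968). Ctnnd1 encodes p120-catenin, which binds and stabilises E-cadherin at the membrane, and was on the adherens junction list. These are descriptions over 9 arrays that share their group structure, and 567 genes had r over 0.9 with Ctnnb1, 138 with Arid1a and 122 with Cdh1.

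The other driver genes of colorectal cancer gave 3 higher and 5 lower of 31 at 12 weeks, and 5 higher and 7 lower at 60 weeks. Blocking on the slide row, the counts were 3 and 2 at 12 weeks, and 2 and 1 at 60 weeks. They were 7 and 8, and 8 and 10, without 12 weeks replicate 2. Pole, a replicative DNA polymerase, fell by 1.17 ± 0.13 at 60 weeks (adjusted p = 0.000326). Of 11 genes known to be mutated in the epithelium of ulcerative colitis, Trp53, Arid1a and Fbxw7 among them, 4 were higher and 1 lower at 12 weeks, and 4 were higher and 0 lower at 60 weeks. Leaving out 12 weeks replicate 2 gave 6 higher and 2 lower at 12 weeks. The largest changes among these 11 at 12 weeks were those of Zc3h12a, an RNase that degrades inflammatory transcripts, at 2.73 ± 0.20 (adjusted p = 2.45e-05), and Nfkbiz, a co-activator of NF-kB and IL-17 responses, at 1.01 ± 0.15 (adjusted p = 0.00132). At 60 weeks Zc3h12a stood 2.67 and Nfkbiz 1.22 above the untreated level. The proliferation marker Mki67 did not pass, with differences of -0.03 ± 0.17 and -0.31 ± 0.17 (adjusted p = 0.915 and 0.204).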

How the data were processed

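The 9 single-colour arrays (3 at each of 0, 12 and 60 weeks) were scanned and quantified by the authors with Agilent Feature Extraction 10.7.3.1, per the file headers. The deposited scanner files hold a background-subtracted intensity per spot, on a linear scale and unscaled between arrays; the array number limits the precision. The deposited value table of normalized signal for 42530 probes equals the intensity divided by 1 constant per array, 0.993 to 0.999 of its 75th percentile; its stated scale and centring were not given in the sources used here, and its column medians were 0.0668, 0.0719, 0.0705, 0.0619, 0.0681, 0.0733, 0.0673, 0.0695 and 0.0582. It served as an alternative. It does not list the Trp53 probe.

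Outlier spots were dropped, the spots of a probe averaged, and log2 values expressed against the 75th percentile of the same array. Probes well above background on 2 of 3 arrays of any group were kept; a gene took its brightest probe. Of 55681 probes 27235 matched 1 RefSeq symbol, 0 several and 28446 none. All 9 arrays were fitted with limma 3.58.1 in R 4.3.3 (no block), tested two-sided with Benjamini-Hochberg adjustment at 0.05, after a check on simulated data. The files hold no mean signal, so the normexp alternative (offset 50) used the median signal, and array weights used the gene-by-gene method because the default did not converge. The probe-difference fit was added after the data were seen. Named genes were the 8 members, up to 2 per list and comparison with the lowest adjusted p and separated arrays, 11 fixed pathway genes, 3 neighbours a side and 3 like profiles. A few of these are not reported here. Members and lists were chosen with earlier results of these data known, so patterns already seen are not independent evidence. Columns of other samples numbered 0.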

Additional observations from a re-analysis of the deposited data

Results flagged for a closer look

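Ctnnb1 differed between the time points: its change at 60 weeks was -0.30 relative to its change at 12 weeks, both against the same untreated arrays, by limma's test of that difference (adjusted p = 0.0363). The 12 week arrays (6.68, 6.39 and 6.55) all lay above the 60 week arrays (6.24, 6.23 and 6.25). The difference within row 2 of the slide was -0.23, and the part of the slide row in it was not tested beyond the block fit.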

How the results depend on the processing

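Of the members' calls, that of Ctnnb1 at 12 weeks held in 21 of 21 alternatives (0.55 to 0.80). The others were lost in some: Trp53 at 12 weeks in 9 of 20, Arid1a at 12 weeks in 2 of 22, Ctnnb1 in 12 of 21 at 60 weeks and 13 of 21 from 12 to 60 weeks, and Cdh1 at 60 weeks in 7 of 21. Other members gained a call in some: Cdh1 at 12 weeks in 4 of 21 and Myc at 12 weeks in 2 of 21. Fbxw7 gained one in 3 of 22 at 60 weeks and 3 of 22 from 12 to 60 weeks, and Trp53 from 12 to 60 weeks in 2 of 20. The cause of these losses and gains was not tested, and no slide row held both 0 and 60 week arrays. The number of members called at 12 weeks was 5 with array weights. At 60 weeks it was 0 under quantile normalization, 0 without a filter on dim probes, 0 with the slide row as a block, 1 with normexp and 1 with the replicate block. From 12 to 60 weeks it was 2 with the percentile over bright probes, 2 with normexp, 3 with array weights, and 0 without the filter, with only the 2 groups compared, with the slide row, with the replicate block and relative to the chromosome. The F test called 1 member without the filter and 6 with array weights. Over all genes, 7604 were called at 60 weeks with array weights and 1392 with the slide row, and 3469 from 12 to 60 weeks with the slide row. Leaving out 1 array gave 4228 to 7405 genes and 1 to 4 members at 12 weeks, 3195 to 6022 and 0 to 2 at 60 weeks, 3624 to 7073 and 0 to 2 from 12 to 60 weeks, and 6235 to 9562 and 1 to 3 by the F test.

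Some values that had not passed the test, and that of Npm1, changed sign or reached 0. Apc at 60 weeks was -0.01 with the percentile over bright probes and -0.05 with array weights, and from 12 to 60 weeks 0 under quantile normalization, 0.03 with the slide row and 0.06 relative to the chromosome. Smad4 from 12 to 60 weeks was 0 with the percentile over bright probes, -0.07 under quantile normalization, -0.04 with array weights and -0.02 by its other probe; at 12 weeks it was 0 by the mean of probes and -0.06 by the other probe, which gave -0.09 at 60 weeks. Fbxw7 at 12 weeks was -0.1 by the mean of probes, -0.07 relative to the chromosome and -0.25 by the other probe. Cdh1 was -0.06 and Npm1 -0.07 from 12 to 60 weeks under quantile normalization. Without 1 array, the ranges were -0.04 to 0.15 for Apc, -0.05 to 0.19 for Fbxw7 and -0.08 to 0.2 for Smad4 at 12 weeks, -0.08 to 0.11 for Apc and -0.01 to 0.14 for Trp53 at 60 weeks, and -0.1 to 0 for Apc, -0.22 to 0.07 for Myc and -0.09 to 0.19 for Smad4 from 12 to 60 weeks. Of 2410 values of other named genes, 199 lost their call and 1 changed sign.

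The labels do not say whether the replicate numbers pair the samples. Same-numbered arrays deviated together with correlations of -0.08 to 0.20, which with 3 arrays a group cannot settle whether they were paired. With the replicate block 5797, 4453 and 5246 genes were called in the 3 comparisons, and 2, 1 and 0 members. Apc's dim second probe had no usable signal over background.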
